A study of Mus musculus with 4 samples.

Results

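Mitochondrial solute carriers are the proteins of the SLC25 family, and the genes described here are the 47 protein-coding mouse genes whose symbol is Slc25a followed by a number, among the 21896 protein-coding genes that RefSeq places on GRCm38.p6 (mm10). The symbol is the whole rule, which uses no measured value, although the family was picked with earlier results of these data known. The inner mitochondrial membrane is closed to most charged metabolites. SLC25 carriers are small membrane proteins that exchange or import nucleotides, phosphate, carboxylates, amino acids, acylcarnitines, coenzymes and metals across it. In heart muscle, which makes most of its ATP in mitochondria, the ADP/ATP and phosphate carriers feed ATP synthase and export its product, the oxoglutarate/malate and aspartate/glutamate carriers form the malate-aspartate shuttle, and the acylcarnitine carrier brings in fatty acids for oxidation. ATF4, the protein pulled down, is a bZIP transcription factor of the integrated stress response. It is known for binding composite elements with the core TGATGNAA near genes of amino acid supply, usually with a partner of the C/EBP or AP-1 family.

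Chromatin of mouse heart ventricle, taken at 4 weeks of age and crosslinked, was captured on streptavidin beads for ATF4 and its DNA was sequenced. The labels give 2 ATF4 pull-down samples, whose antibody field reads AAV without explanation, and 2 input samples of sheared chromatin from the same tissue and age, whose values are not analysed here. The origin of the captured ATF4 is not given, nor are genotype and strain, and the labels do not say whether the samples came from separate animals. An SD between replicates below therefore measures only the spread between these samples, which may be technical. The authors' peak lists hold 78746 peaks for replicate 1 and 88812 for replicate 2, and their series-wide list holds 41639. The lowest fold is 7.5 in the series-wide list, 5.5 in replicate 1 and 5.32 in replicate 2. A fold is the authors' enrichment of a peak over a constant background, not a ratio to input, and a peak does not by itself show that ATF4 binds there. Sequencing depth is unknown. The series-wide fold is the higher of the pair of replicate folds, which were recovered from the replicate lists' scores and are extrapolated under 7.5-fold. As a check on the tissue, all 5 cardiac muscle markers had a series-wide peak at a gene end (8.63 ± 1.59 at Ryr2 to 61.1 ± 1.22 at Tnnt2, mean ± SD, n = 2). Of 4 neuronal markers 0 did, against 34.9% of all protein-coding genes. In the replicate lists Snap25 had end peaks of 12.0-fold and 7.09-fold, and Syp had 6.0-fold in replicate 1 alone. All 4 neuronal markers had a series-wide peak in the gene body with 10 kb, against 61.1% of all genes. Their median gene length was 245.4 kb, against 17.1 kb over all genes. However, 3 of 4 liver markers also had one at a gene end (14.5 ± 6.41 at Alb, 15.2 ± 6.68 at Apoa1 and 19.1 ± 5.02 at Ttr, SD, n = 2). A peak does not measure expression, the lists alone do not establish the cell type, and the part of other cells in the carriers' peaks was not tested.

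The promoters below show the DNA under peaks at 4 carriers. Slc25a4 and Slc25a3 have the strongest series-wide peaks touching a promoter of the table among the carriers used in heart muscle, and capitals mark the 21 bases centred on the peak's summit, at -195 from the start in Slc25a4 and -174 in Slc25a3. Slc25a25 (an internal start) and Slc25a36 were added after a motif search, as the carriers whose promoters hold the cyclic AMP response element TGACGTCA, which is in capitals. Each runs 5′ to 3′ on the minus strand from 250 bases before to 50 after the start, from RefSeq (GRCm38.p6), at chr8:46211013-46211312, chr10:91123918-91124217, chr2:32424017-32424316 and chr9:97110992-97111291.
Slc25a4: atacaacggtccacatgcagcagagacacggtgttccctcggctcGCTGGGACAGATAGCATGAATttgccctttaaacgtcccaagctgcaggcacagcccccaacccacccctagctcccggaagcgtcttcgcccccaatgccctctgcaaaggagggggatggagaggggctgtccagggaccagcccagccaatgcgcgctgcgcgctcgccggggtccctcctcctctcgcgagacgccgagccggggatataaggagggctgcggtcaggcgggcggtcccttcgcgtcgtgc
Slc25a3: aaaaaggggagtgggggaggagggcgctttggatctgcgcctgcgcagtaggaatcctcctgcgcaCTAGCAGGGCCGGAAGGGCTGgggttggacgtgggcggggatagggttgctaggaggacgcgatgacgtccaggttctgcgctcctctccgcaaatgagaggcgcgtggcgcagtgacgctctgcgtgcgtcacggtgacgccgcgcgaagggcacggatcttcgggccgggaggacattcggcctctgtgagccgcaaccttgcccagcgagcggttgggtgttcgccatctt
Slc25a25: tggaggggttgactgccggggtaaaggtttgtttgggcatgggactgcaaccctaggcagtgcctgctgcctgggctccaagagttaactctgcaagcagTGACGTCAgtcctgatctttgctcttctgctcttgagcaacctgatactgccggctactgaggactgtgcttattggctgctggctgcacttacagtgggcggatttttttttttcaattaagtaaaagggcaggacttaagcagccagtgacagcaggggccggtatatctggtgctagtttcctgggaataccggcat
Slc25a36: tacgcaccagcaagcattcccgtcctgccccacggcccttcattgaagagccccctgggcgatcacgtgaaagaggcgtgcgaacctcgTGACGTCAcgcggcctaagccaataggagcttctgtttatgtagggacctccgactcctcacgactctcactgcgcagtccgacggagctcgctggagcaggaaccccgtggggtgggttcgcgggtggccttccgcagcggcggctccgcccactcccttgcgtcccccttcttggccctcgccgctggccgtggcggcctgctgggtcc

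More than 1 in 2 carriers had a peak at a gene end. A gene end is either end of the gene model, and a peak counted when it shared at least 1 bp with the 1 kb on either side. In the series-wide list 27 of the 47 carriers (57.4%) had such a peak, against 34.9% of all protein-coding genes. In replicate 1, 39 carriers had an end peak (83.0%, against 48.2% of all genes), and in replicate 2, 37 did (78.7%, against 50.2%). All 37 of replicate 2 were among the 39 of replicate 1, and 45.2% of all genes had an end peak in both. Peak heights were near those of other genes. The strongest end peak had a median series-wide fold of 12.5 over the 27 carriers and 13.3 over the 7641 genes with an end peak. That order was the other way round in replicate 1 alone (11 over carriers and 10 over all genes) and with a window of 5 kb (16.2 and 14.5). At 20-fold or more, 2 carriers (4.26%) had an end peak, against 6.70% of all genes. So the carriers had end peaks more often than protein-coding genes as a whole, and high ones not more often. No test was made of this difference.

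**Figure D1:**
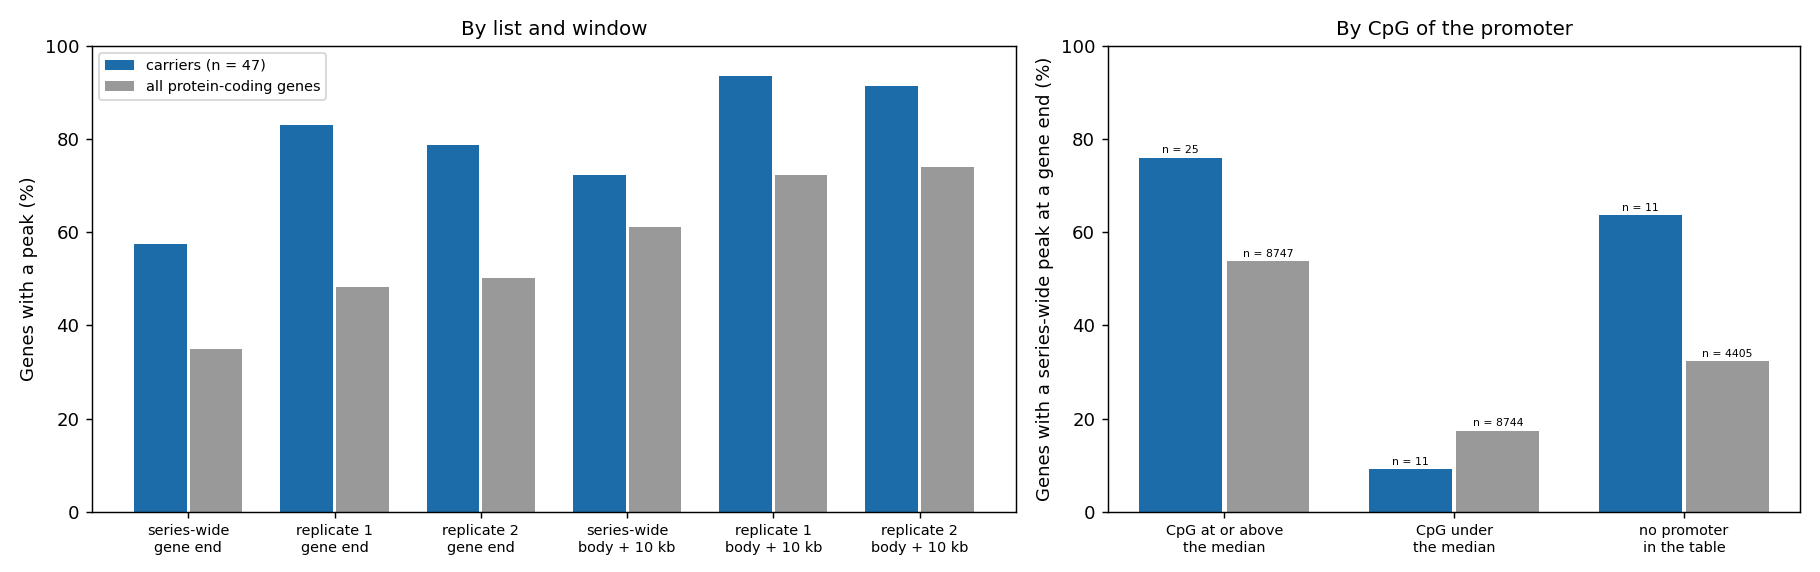
Share of genes with a peak, in percent, for the 47 carriers (blue) and all 21896 protein-coding genes (grey). Left, by peak list, within 1 kb of a gene end and in the gene body with 10 kb; right, series-wide end peaks split by the number of CpG in the promoter, with the number of genes above each bar. The carriers lie above all genes in the 6 pairs on the left and below them only where CpG is under the median.

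The wider window, the gene body with 10 kb on either side, held a series-wide peak at 34 carriers (72.3%, against 61.1% of all genes). In replicate 1 it held a peak at 44 carriers (93.6%, against 72.3% of all genes) and in replicate 2 at 43 (91.5%, against 74.1%). Here the carriers were closer to the background. The median gene length was 21.5 kb for the carriers and 17.1 kb for all protein-coding genes. The part of gene length in these shares was not tested. The median fold of the strongest peak in this window was 18 over the 34 carriers and 17.0 over all genes with a peak there. The windows of the carriers held 92 series-wide peaks, none of them counted for more than 1 carrier and all of them overlapped by a peak of each replicate. That is 3.42 peaks per 100 kb of window, against 2.58 summed over all protein-coding genes.

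The carriers of adenine nucleotides and phosphate included both strong end peaks of the family. Of 8 such genes, 6 had a series-wide end peak (75%, against 34.9% of all genes). Slc25a4 encodes the ADP/ATP carrier that predominates in heart and skeletal muscle. Its start peak (chr8:46210044-46211519) had 42.0-fold in replicate 1 and 36.3-fold in replicate 2 (39.2 ± 4.00, SD, n = 2). The summit lay at -195 bp from the start, in the stretch capitalised above, and the nearest end of another protein-coding gene, Cfap97, was 14454 bp away. Slc25a4 also had 5 further series-wide peaks within 10 kb although the gene is only 3.90 kb long. A peak 2.55 kb into the gene had 25.5-fold in replicate 1 and 20.4-fold in replicate 2, and a peak in the upstream flank, at -6.03 kb, had 25.5-fold and 24.4-fold. At 25.1 peaks per 100 kb, its window was among the densest, since 0.164% of protein-coding genes had at least that many per length.

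Slc25a23 encodes an ATP-Mg/phosphate carrier that calcium regulates, and had the highest end peak of the 47 genes. The values were 49.0-fold in replicate 1 and 48.8-fold in replicate 2 (48.9 ± 0.172, SD, n = 2; chr17:57059626-57060830). The summit lay at -681 bp from the start, the nearest other gene end (Crb3) was 1371 bp from the peak, and no other series-wide peak was found within 10 kb of the gene. So Slc25a23 carried a single tall peak where Slc25a4 carried several. Slc25a41, a relative whose gene lies beside it, had 16.0-fold and 16.4-fold (16.2 ± 0.283, SD, n = 2), in a peak that also touches an end of Khsrp. Slc25a25, of the same subgroup, had 10-fold and 9.31-fold at the start of its longest model (9.65 ± 0.489, SD, n = 2). Over the internal start printed above, a peak had 13.5-fold and 15.1-fold (14.3 ± 1.11, SD, n = 2). The strongest of the 6 series-wide peaks of Slc25a25 lay inside the gene, 4.58 kb from the nearest annotated start. It had 22.0-fold and 18.6-fold (20.3 ± 2.39, SD, n = 2).

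The other members of this group had modest or no end peaks. Slc25a3 encodes the phosphate carrier, and had 12.5-fold in replicate 1 and 11.1-fold in replicate 2 over its start (11.8 ± 1.00, SD, n = 2). Slc25a5 encodes the ADP/ATP carrier of most other tissues, and had 9.0-fold and 9.31-fold (9.15 ± 0.218, SD, n = 2). That peak lay inside the gene with its summit 849 bp from the start, and no series-wide peak touched the promoter itself. A second peak, 1.30 kb into the gene, had 14 ± 2.80 (SD, n = 2). Both replicates of Slc25a4 lay above both of Slc25a5 at either peak. Slc25a24 had a peak in each replicate (8.0-fold and 5.76-fold) but none in the series-wide list. Slc25a31, the ADP/ATP carrier of testis, had no peak within 10 kb in any list, like Slc25a14 and unlike the other 45 carriers.

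**Figure D2:**
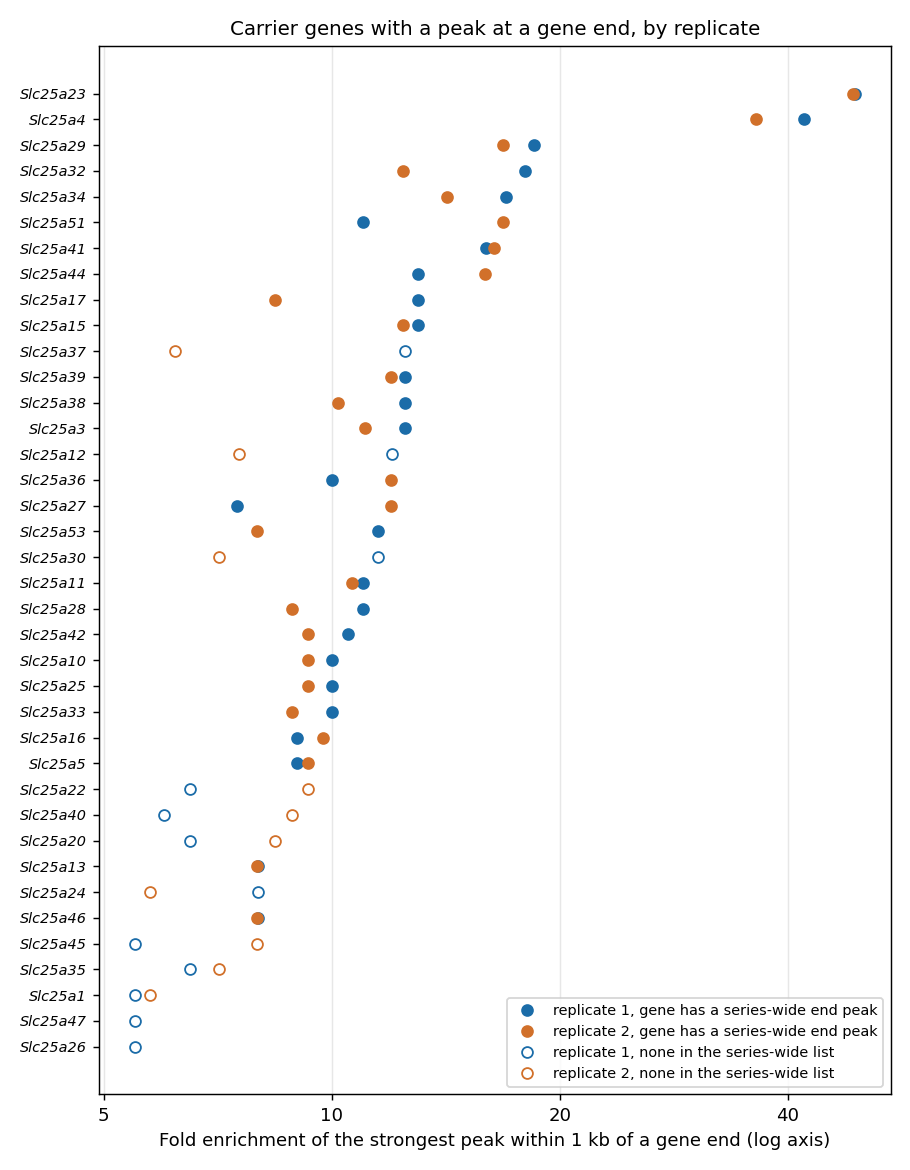
Fold enrichment (log axis) of the strongest peak within 1 kb of a gene end in replicate 1 (blue) and replicate 2 (orange) for 38 carriers with such a peak in either replicate, highest at the top. Open circles mark carriers with no end peak in the series-wide list. Slc25a23 and Slc25a4 stand at 36.3-fold or more in both replicates, and every other carrier drawn lies at or under 18.5-fold.

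Among carboxylate carriers, 2 of 4 had a series-wide end peak (50%, against 34.9% of all genes). Slc25a11, the oxoglutarate/malate carrier of the malate-aspartate shuttle, had 11-fold in replicate 1 and 10.6-fold in replicate 2 (10.8 ± 0.256, SD, n = 2). The peak also touched an end of Rnf167, so it cannot be assigned to either gene. Slc25a10, the dicarboxylate carrier, had 10-fold and 9.31-fold at the far end of the gene and no series-wide peak at its start. Slc25a1, the citrate carrier, had end peaks of 5.5-fold and 5.76-fold, both under the lowest fold of the series-wide list. In its flank, 3.19 kb beyond the far end of the gene, a series-wide peak had 15.0-fold and 15.5-fold. Slc25a21, the oxodicarboxylate carrier, spans 484.8 kb and is the longest of the 47 genes. It had no series-wide peak in or near it, where 42 of the 351 protein-coding genes of 400 kb or more (12.0%) had none. Replicate 1 had a peak of 5.5-fold there and replicate 2 had none.

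The aspartate/glutamate carriers, the other arm of the shuttle, had low end peaks. Slc25a12 is the main form in heart and muscle. Taken separately in each replicate, its strongest end peak had 12.0-fold in replicate 1 and 7.54-fold in replicate 2 (9.77 ± 3.16, SD, n = 2), with none in the series-wide list. It did have 4 series-wide peaks within 10 kb or inside, at 10-fold to 11.5-fold. Slc25a13, the form best known from liver, had 8.0-fold and 7.98-fold at its start (7.99 ± 0.0153, SD, n = 2). Inside Slc25a13 the picture differed. The gene, 176.1 kb long, held 11 series-wide peaks in its window, 23 in replicate 1 and 25 in replicate 2. A peak 33.3 kb into the gene (chr6:6183219-6184316) had 52.0-fold and 54.1-fold (53.0 ± 1.47, SD, n = 2), the highest of all 92 carrier peaks. Further peaks lay 8.63 kb, 31.8 kb and 149.9 kb into it, at 34.4 ± 3.39, 29.8 ± 6.77 and 37.1 ± 0.503 (SD, n = 2). The nearest end of another protein-coding gene, Dync1i1, was 38978 bp from the last of these and 155180 bp or more from the others. Slc25a13 had 5.61 peaks per 100 kb, against 3.42 summed over all carriers and 4.22 without the long Slc25a21. Some carriers had more, such as Slc25a33 with 11.9.

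Of the 9 carriers of amino acids, 5 had a series-wide end peak (55.6%, against 34.9% of all genes), and Slc25a29 led them. It encodes the carrier of basic amino acids, and had 18.5-fold in replicate 1 and 16.8-fold in replicate 2 (17.7 ± 1.17, SD, n = 2). Slc25a44, of branched-chain amino acids, had 13.0-fold and 16.0-fold (14.5 ± 2.09, SD, n = 2), in a peak shared with an end of Pmf1. A peak at the other end of Slc25a44 had 12.0-fold and 15.5-fold (13.8 ± 2.48, SD, n = 2). It lay 10566 bp from the nearest end of another protein-coding gene. Slc25a15, the ornithine carrier of the urea cycle, had 12.7 ± 0.417, and Slc25a38, a glycine carrier needed for haem, had 11.3 ± 1.63 (SD, n = 2). Slc25a22, a glutamate carrier, shows what the gene-end window misses. Its gene-model ends had 6.5-fold and 9.31-fold and no series-wide peak, but an internal start had a peak of 26.0-fold and 24.8-fold (25.4 ± 0.833, SD, n = 2) with the summit 30 bp from that start. Slc25a18 and Slc25a2 had no end peak in any list.

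The acylcarnitine carrier had low end peaks in the replicates alone. Slc25a20 brings long-chain acylcarnitines to fatty acid oxidation, and had end peaks of 6.5-fold in replicate 1 and 8.42-fold in replicate 2 (7.46 ± 1.36, SD, n = 2). No series-wide peak lay within 10 kb of it, which among the 9 heart-used carriers held for Slc25a20 alone.

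Coenzyme, nucleotide and vitamin carriers had the fullest set, with a series-wide end peak at 8 of 9 (88.9%, against 34.9% of all genes). All 9 had a series-wide peak in the wider window, against 61.1% of all genes. Slc25a32, of folate and FAD, had 18-fold in replicate 1 and 12.4-fold in replicate 2 (15.2 ± 3.95, SD, n = 2), in a peak shared with an end of Dcaf13. Slc25a51, the mitochondrial NAD carrier, had 11-fold and 16.8-fold (13.9 ± 4.13, SD, n = 2). Slc25a42, which imports coenzyme A, had 9.90 ± 0.843, Slc25a16 had 9.38 ± 0.531 and the peroxisomal carrier Slc25a17 had 10.7 ± 3.24 (SD, n = 2). The exception was Slc25a26, of S-adenosylmethionine, with 5.5-fold in replicate 1 and no end peak in replicate 2. It had a peak of 27.5-fold and 27.0-fold inside the gene, 3.38 kb from an end of the model and 2526 bp from an end of Lrig1.

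The pyrimidine nucleotide carriers Slc25a33 and Slc25a36 had higher peaks beside the gene than at its start. Slc25a33 had 10-fold in replicate 1 and 8.87-fold in replicate 2 at a gene end, but 41.0-fold and 39.0-fold (40 ± 1.41, SD, n = 2; chr4:149777020-149777814) in the upstream flank, at -3.14 kb. Slc25a36 had 10-fold and 12.0-fold over its start, and 24.0-fold and 33.7-fold (28.8 ± 6.85, SD, n = 2) at a site 6.34 kb beyond its other end. Each had 6 series-wide peaks in the window. The upstream peak of Slc25a33 was 38948 bp from the nearest end of another protein-coding gene, Tmem201.

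**Figure D3:**
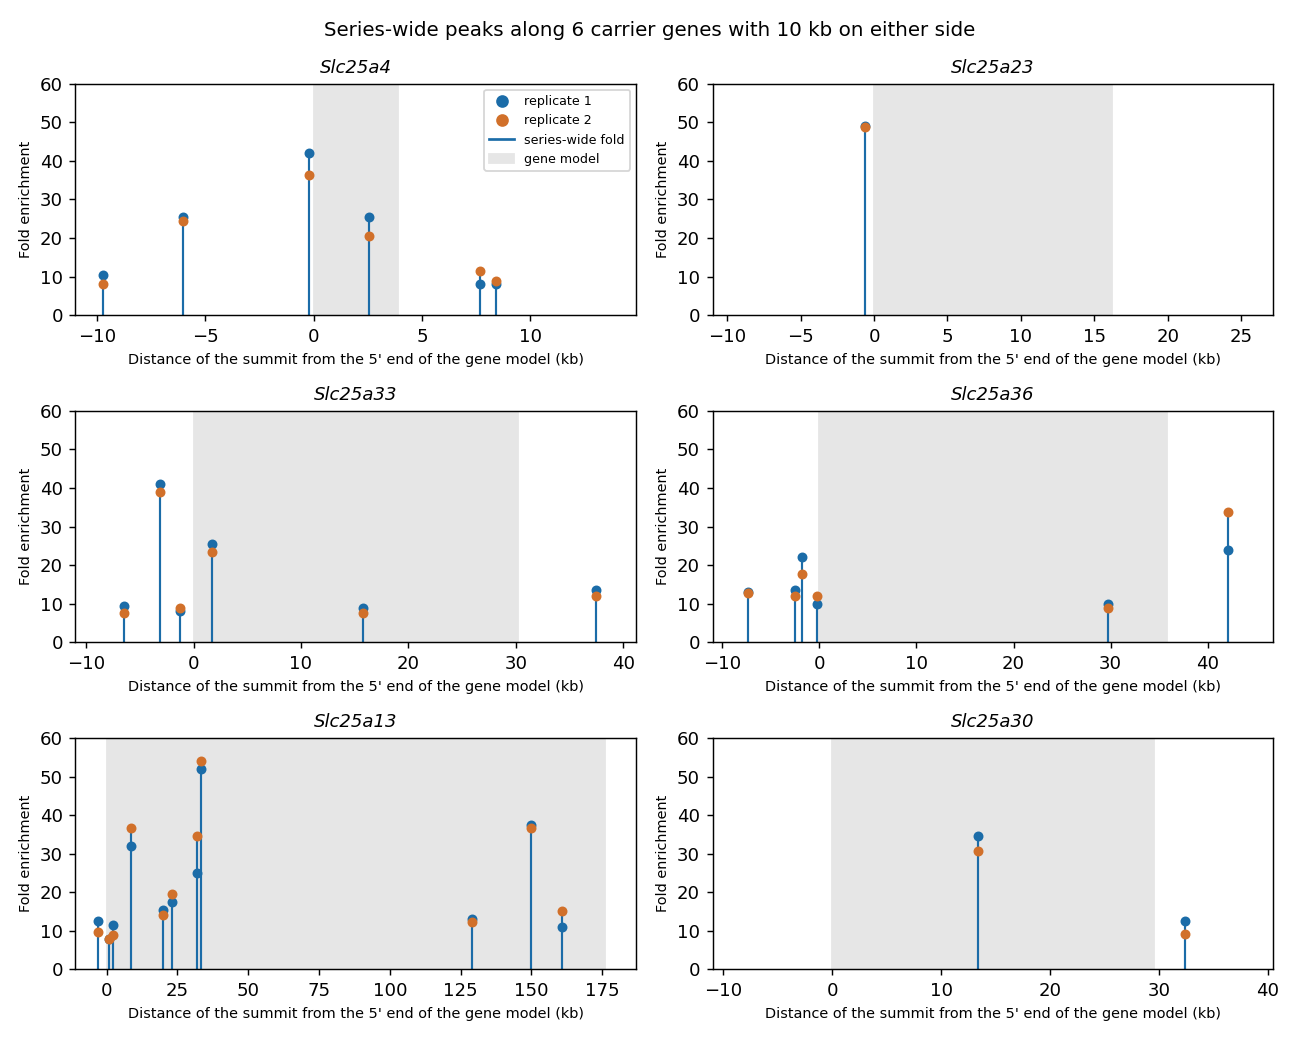
Series-wide peaks along 6 carriers by distance of the summit from the 5′ end of the gene model in kb, with the gene model shaded. Lines give the series-wide fold and points the fold in replicate 1 (blue) and replicate 2 (orange). Slc25a23 has a single peak of 49.0-fold upstream, Slc25a4 has 6 around a short gene, and in Slc25a13 the peaks inside reach 54.1-fold while the start has 8.0-fold.

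Of 4 carriers of iron and glutathione, 2 had a series-wide end peak (50%, against 34.9% of all genes). Slc25a39, a glutathione carrier, had 12.5-fold in replicate 1 and 12.0-fold in replicate 2 (12.2 ± 0.377, SD, n = 2), and its relative Slc25a40 had 6.0-fold and 8.87-fold with no series-wide peak at its ends. Of the mitoferrins, which import iron, Slc25a28 had 11-fold and 8.87-fold (9.93 ± 1.51, SD, n = 2). Slc25a37, the mitoferrin of red cell precursors, had 12.5-fold and 6.21-fold, the largest disagreement between replicates among carriers with an end peak in both. It had none in the series-wide list. Of 3 carriers resembling uncoupling proteins, Slc25a27 had 7.5-fold and 12.0-fold (9.73 ± 3.16, SD, n = 2), in a peak shared with an end of Cyp39a1. Slc25a30 had a series-wide peak only away from its ends (34.5-fold and 30.6-fold inside the gene), and Slc25a14 had no peak.

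A further 9 members were given no substrate here, and 3 had a series-wide end peak (33.3%, near the 34.9% of all genes). Slc25a34 had 17.0-fold in replicate 1 and 14.2-fold in replicate 2 (15.6 ± 1.99, SD, n = 2), Slc25a53 had 9.74 ± 2.49 and Slc25a46, an outer membrane protein of mitochondrial shape, had 7.99 ± 0.0153 (SD, n = 2). Slc25a35 and Slc25a45 had end peaks of 5.5-fold to 7.98-fold in both replicates. Slc25a47, the liver member, had 5.5-fold in replicate 1 alone. Slc25a43, Slc25a48 and Slc25a54 had no end peak in any list. Over the whole family of 47, 27 carriers had a series-wide end peak, 10 had end peaks in both replicates without a series-wide one, 2 had one in replicate 1 alone and 8 had none in any list. Over all 21896 protein-coding genes the same counts were 7641, 2404, 658 and 10118.

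The carriers used in heart muscle were set beside carriers best known from other tissues, both lists drawn from general knowledge and with earlier results of these data known. Slc25a5 and Slc25a13 stand in the heart-used list although they are also prominent in other tissues, so the lists are not a clean split by tissue. Of the 9 heart-used carriers (Slc25a3, Slc25a4, Slc25a5, Slc25a11, Slc25a12, Slc25a13, Slc25a20, Slc25a42 and Slc25a51), 7 had a series-wide end peak (77.8%, against 34.9% of all protein-coding genes) and all 9 had end peaks in both replicates (against 45.2%). Of 8 carriers of other tissues (Slc25a2, Slc25a15, Slc25a18, Slc25a27, Slc25a31, Slc25a37, Slc25a38 and Slc25a47), 3 had a series-wide end peak (37.5%) and 4 had end peaks in both replicates (50%), near the shares of all genes. The median series-wide end fold was 11 over the 7 heart-used carriers with a peak and 12.5 over the 3 of other tissues. The lists are short, no test was made, and Slc25a4 alone of the heart-used list passed 20-fold.

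**Figure D4:**
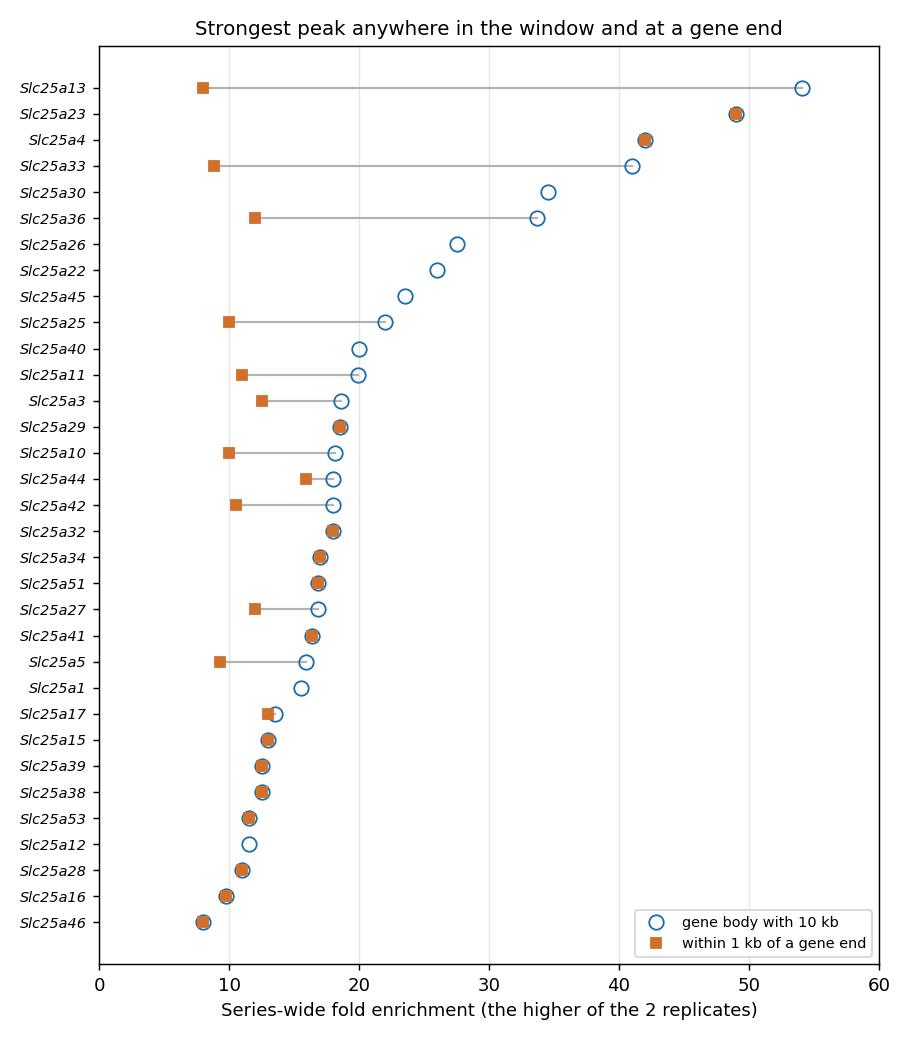
Series-wide fold of the strongest peak in the gene body with 10 kb (blue circles) and within 1 kb of a gene end (orange squares) for 33 carriers with a series-wide peak, highest at the top. At 19 of them the strongest peak lies away from the gene ends, and 7 of these have no end peak in the series-wide list. Of all 13372 protein-coding genes with a series-wide peak in this window, 5731 have no series-wide end peak. The count of 19 has no matching share over all genes.

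Position within the genes was described for the 36 carriers with a start in the promoter table. Of 20 such carriers with a series-wide end peak, 19 had their strongest end peak overlapping the 1 kb around an annotated start, the exception being Slc25a10. The summit of these 19 lay a median of 174 bp from the start, within 250 bp in 13 and upstream in 13. Among carriers with a known start, the strongest end peak was thus mostly at the start. Of all 92 peaks in the windows of the carriers, 30 lay inside a gene away from its ends and annotated starts, 29 in the flanks, 23 at a start and 10 at a gene end. Of the 18 at 20-fold or more, spread over 11 genes, 9 lay inside a gene, 6 in the flanks and 3 at a start. Of those 9, 4 belong to Slc25a13, and 1 to Slc25a26, which has no start in the promoter table. Peaks were not split by place over all protein-coding genes, so these counts are not set against a background. The strongest end peak lay within 1 kb of another protein-coding gene's end at 6 of the 27 carriers (Slc25a11, Slc25a25, Slc25a27, Slc25a32, Slc25a41 and Slc25a44). At the remaining 21 the median series-wide fold was 12.5. Counting every series-wide end peak, 4 carriers had only such shared peaks and 23 had an end peak near no other gene's end. The matching shares over all genes were not taken.

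The promoters of carriers with and without peaks differed in CpG content, which the choice of genes did not use. This split was made after the peaks had been seen. Of 25 carriers with at least 15 CpG in a promoter of 300 bases, the median over protein-coding genes, 19 had a series-wide end peak (76%, against 53.8% of 8747 genes). Of 11 carriers below that, 1 had an end peak (9.09%, against 17.3% of 8744 genes). That carrier was Slc25a34, whose promoter holds 1 CpG. Among carrier promoters the median was 24 CpG in the 21 under a series-wide peak and 13 in the 25 under none. Over all genes it was 22 in 6527 promoters under a peak and 7 in 14735 under none. Of the 11 carriers without a promoter in the table, 7 had an end peak (63.6%, against 32.3% of 4405 genes). The share of carriers was above that of all genes among CpG-rich promoters and among genes with no promoter in the table, and below it among CpG-poor ones, where it rests on 1 gene. These differences, and the part of CpG content in them, were not tested.

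The core TGATGNAA, read on both strands, was in 0 of the 46 carrier promoters, which belong to 36 genes. Over all protein-coding genes it was in 3.60% of 21262 promoters, and in 2.33% of those under a series-wide peak. The stricter TGATGCAA, which is contained in it, was also in 0 carrier promoters and in 0.865% of all. TGACGTCA, which reads the same on both strands, was in 2 carrier promoters, both under a series-wide peak, and in 2.23% of all promoters and 4.17% of those under a peak. In the internal start of Slc25a25 it began at -150 from the start, with the peak summit at -81. In Slc25a36 it began at -161, with the summit at -222. With 46 promoters the carriers are too few to set these shares apart from the background, and the lack of a match says only that the letters are not in this window.

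The replicates gave similar values at most carriers. Over the 37 carriers with an end peak in both, Pearson's r of the log2 folds was 0.826 and Spearman's rho was 0.643, a description across genes of the same pair of samples. The ratio of replicate 1 to replicate 2 had a median of 1.05 and ran from 0.627 at Slc25a27 to 2.01 at Slc25a37. Folds were within 1.5 times of each other at 31 of the 37, and 24 were higher in replicate 1 against 13 in replicate 2. Over all genes with an end peak in both, the median ratio was 0.994. Of the 10 carriers with end peaks in both replicates and none in the series-wide list, 7 were under 10-fold in both.

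Other genes of mitochondrial transport were described from lists of general knowledge. Relatives of the family under other symbols had a series-wide end peak at 2 of 5 (40%, near the 34.9% of all protein-coding genes). Mtch1 and Mtch2, whose products lie in the outer membrane, had 30.8 ± 0.961 and 7.49 ± 0.692 (SD, n = 2). The uncoupling protein genes Ucp1, Ucp2 and Ucp3 had no series-wide end peak. Ucp2 had end peaks of 6.0-fold in replicate 1 and 10.2-fold in replicate 2, and Ucp3 had 5.32-fold in replicate 2 alone. Ucp3, the uncoupling protein of muscle, had a series-wide peak of 38.5-fold in its wider window. Of 20 other inner membrane transporters, 12 had an end peak (60%), led by the sideroflexin gene Sfxn5 with 34.1 ± 5.56 (SD, n = 2). Both subunits of the pyruvate carrier had one, with 9.43 ± 0.803 at Mpc1 and 11 ± 1.39 at Mpc2 (SD, n = 2), and so did Mcu, the pore of the calcium uniporter, with 8.02 ± 0.682 (SD, n = 2). Of 8 outer membrane channels and receptors, 6 had an end peak (75%), led by the import receptor gene Tomm70a with 26.6 ± 3.72 (SD, n = 2). Of 8 genes of inner membrane import, 7 did (87.5%), at series-wide folds of 10.5 to 18.2.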

How the data were processed

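DNA was measured by sequencing after ATF4 pull-down (2 samples) and in input (2 samples, not analysed here). Per the submitters' processing notes, Bowtie2, MACS2 and deepTools were used with mm10; their versions, roles and thresholds are not given in the sources used here. The series-wide list gives the authors' fold enrichment for each peak, and the deposited replicate lists give a −log10 p-value or q-value, which of these is not stated. A fold for each replicate was recovered from peaks with the same coordinates and summit in the series-wide list (17420 in replicate 1 with 0 off the relation, 21053 in replicate 2 with 6 off). The lowest 4 values of replicate 1 and 5 of replicate 2 were continued downwards by equal steps, so folds under 7.5 are extrapolated. Inner gaps (2 and 9 values) were interpolated.

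Gene positions and 300-base promoters came from RefSeq (GRCm38.p6). Starts were known for 36 carriers, and exons were not used. A peak was counted on an overlap of at least 1 bp with a window of 1 kb around either gene end, or with the gene body and 10 kb on either side; counting was tested on simulated data with 200 planted genes. Each replicate's end fold is that of its own strongest end peak. With 2 samples of a single kind no test between conditions was possible, so none was made, and SDs are between the 2 replicates. Carriers were named and grouped by substrate; 1 carrier is in the counts and medians, but its values are not reported here or drawn. Carriers, lists and rules were chosen with earlier results of these data known. Alternative windows, fold limits, overlap rules and motifs, and leaving out each replicate, were tried. The tools were Matplotlib 3.10.9 for figures, pandas 2.3.3 and NumPy 2.4.6 for tables, and SciPy 1.17.1, under Python 3.11.15.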

Additional observations from a re-analysis of the deposited data

How the results depend on the processing

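The number of carriers with an end peak, 27 in the series-wide list, was 24 with a window of 0.5 kb (31.7% of all genes) and 32 with 5 kb (47.4%). It was 25 with the summit in place of any overlap (32.8%) and 27 with peaks of both replicates only (34.3%). Taking starts alone gave 20 of the 36 carriers with a known start (35.4% of all genes with one). Restricted to the 20% of peaks with the highest fold, 2 carriers kept an end peak (5.66% of all genes), 1 heart-used carrier did, and 10 carriers had a peak in the gene body with 10 kb (21% of all genes). Using the list of a single replicate gave 37 to 39 carriers, 9 to 9 heart-used carriers and 43 to 44 carriers by the wider window. The median end fold was 16.2 with 5 kb (14.5 over all genes), 9.31 without replicate 1 (10.2) and 11 without replicate 2 (10), so its order against all genes turned round with 5 kb and without replicate 2. TGACGTCA in place of TGATGNAA was in 2 promoters. With replicate peaks required to cover 50% of each other, 28 of the 47 carriers had end peaks in both replicates, in place of 37. Over all genes the share was 39.8%, in place of 45.2%. Among CpG-rich promoters alone, an alternative chosen after seeing the data, 19 carriers had an end peak (53.8% of such genes). The cause of these changes was not tested. No paired analysis was possible because the peak lists analysed here hold values of the pull-down group alone. Depth is unknown, so the number of low peaks missed is unknown.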
